A study of Mus musculus with 10 samples.

Results

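A set of 10 core cardiac transcription factors was examined in the mouse right atrium: Nkx2-5, Gata4, Gata5, Gata6, Hand2, Mef2a, Mef2c, Mef2d, Srf and Tead1. They were taken by symbol as established DNA-binding regulators of heart muscle, by a rule that uses no measured value though earlier results of these data were known, and all 10 were found among the 23337 genes of the deposited table. RNA-seq was done on right atria from 4 mice labeled control and 6 mice labeled Tbx5 mutant, each mouse giving 1 library. By label the controls are M1, M2, F1 and F2, and among mutants there are 3 labeled male (M1, M2, M3) and 3 labeled female (F1, F2, F3). Mutant mice had Tbx5 removed by a Cre driven from the ubiquitous R26 locus, so that every cell type of the atrium could lose the gene. Mice received tamoxifen, which activates this Cre, for 3 days (0.167 mg daily), and tissue was taken 1 week after treatment. The sample labels give an age of 8 to 10 weeks and a mixed strain, and their protocol text gives a somewhat younger age. The labels describe the control group only as control, and the alleles that it carried are not given in them. The paper describes R26CreERt2 controls and Tbx5 fl/fl;R26CreERt2 mutants for its left atrial libraries, which are not analysed here, and whether the right atrial controls had the same genotype is not stated in the sources used here.

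The cardiac transcription factors act as a network in which members bind neighboring sites and one another. Nkx2-5, the GATA factors and Tbx5 bind DNA together at enhancers of heart muscle genes, MEF2 proteins and Srf recruit cofactors to contractile and stress genes, and Tead1 carries the Hippo pathway cofactors Yap1 and Wwtr1 to DNA. In the adult atrium these factors keep the contractile, conduction and hormone genes of the muscle cell active, and several of them are also made in fibroblasts, endothelial cells or epicardium.

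Promoter sequence is shown for 4 factors: Mef2a and Mef2d because both fell, Hand2 because it rose, and Srf because it holds sites for its own protein. Each line is the 250 bases before the RefSeq start site in GRCm38.p6, 5′ to 3′ in the direction of the gene, with every motif match in capitals. Mef2a lies at chr7:67372859-67373108 on the reverse strand, Mef2d at chr3:88142122-88142371 on the forward strand, Hand2 at chr8:57320733-57320982 on the forward strand and Srf at chr17:46556163-46556412 on the reverse strand.
Mef2a: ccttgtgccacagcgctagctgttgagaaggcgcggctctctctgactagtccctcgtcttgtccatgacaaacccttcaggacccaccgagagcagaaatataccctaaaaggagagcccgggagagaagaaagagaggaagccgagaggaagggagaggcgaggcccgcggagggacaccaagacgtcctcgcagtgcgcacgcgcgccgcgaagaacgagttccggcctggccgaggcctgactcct
Mef2d: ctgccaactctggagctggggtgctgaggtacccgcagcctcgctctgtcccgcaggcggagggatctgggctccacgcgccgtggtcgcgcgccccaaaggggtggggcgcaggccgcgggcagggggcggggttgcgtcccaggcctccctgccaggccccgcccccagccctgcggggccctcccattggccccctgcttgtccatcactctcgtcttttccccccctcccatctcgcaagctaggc
Hand2: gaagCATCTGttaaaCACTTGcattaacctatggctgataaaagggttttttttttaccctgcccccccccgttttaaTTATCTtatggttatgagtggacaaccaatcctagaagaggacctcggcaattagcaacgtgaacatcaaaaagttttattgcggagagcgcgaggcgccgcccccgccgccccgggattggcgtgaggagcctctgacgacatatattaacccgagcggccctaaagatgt
Srf: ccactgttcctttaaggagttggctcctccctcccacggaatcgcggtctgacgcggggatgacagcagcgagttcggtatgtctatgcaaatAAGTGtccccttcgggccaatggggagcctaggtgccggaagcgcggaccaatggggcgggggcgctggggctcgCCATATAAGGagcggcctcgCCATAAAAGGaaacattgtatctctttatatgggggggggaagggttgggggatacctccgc
The letters searched on both strands were GGTGTGA for the T-box core, AGATAA for GATA factors, AAGTG for NK2 factors, GGAATG for TEAD factors and CANNTG for the E-box, which Hand2 and its partners bind. The MEF2 site was searched as YTAWWWWTAR and the CArG box bound by Srf as CCWWWWWWGG. Here Y is C or T, W is A or T, and R is A or G. Of 32851 promoter windows of this length, 3.33% held the T-box core, 9.99% the GATA letters, 40.7% the NK2 letters, 12.6% the TEAD letters, 66.2% an E-box, 2.92% a MEF2 site and 1.47% a CArG box. The Srf window held 2 CArG boxes, which start 82 and 62 bases before the start site, and 1 NK2 match. The Hand2 window held 1 GATA match, 2 E-boxes and 1 NK2 match that overlaps an E-box. Neither the Mef2a nor the Mef2d window held any of these letters. RefSeq windows were at hand for 7 of the 10 factors, 9 windows in all, and none of them held the T-box core letters.

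The targeted gene, Tbx5, had 205 ± 17.8 CPM in the mice labeled control (SD, n = 4) and 394 ± 83.3 CPM in the mice labeled Tbx5 mutant (SD, n = 6), where CPM are counts scaled to a common TMM library size. It was thus higher in the mice labeled mutant, by 0.94 ± 0.15 on the log2 scale (SE, adjusted p = 0.000495, the quasi-likelihood test of edgeR, adjusted over all genes tested by the Benjamini-Hochberg method, as for every adjusted p here unless ratios are named). A gene count cannot show whether the floxed exon was lost, so the labels name the groups and directions are relative to these labels. Libraries held between 5703775 and 7095141 counts. The library of mutant M3 stood apart, with 38.9% of its counts on the 45S ribosomal RNA gene Rn45s against 0.268% to 1.49% in the other 9, and 3484550 counts outside it. In all 4 control mice the reads of Xist and Ddx3y went against the labeled sex, while they matched the label in all 6 mutant mice. The tissue carried atrial markers in every library, with the summed level of Myl7, Myl4, Sln, Nppa and Bmp10 between 41420 and 46940 CPM in controls and between 17730 and 33550 CPM in mutants.

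Of the 10 factors, 5 differed between the groups at an adjusted p under 0.05. Mef2a, Mef2d, Tead1 and Nkx2-5 were lower in the mice labeled Tbx5 mutant, and Hand2 was higher. Gata4, Gata5, Gata6, Mef2c and Srf did not pass the test. Over all 13084 genes tested, 15.0% were lower and 16.3% were higher at the same threshold, beside 4 and 1 of the 10 factors. With the stricter rule of the study, which also asks for a fold change over 1.5 and a control mean over 1 normalized count, 3 factors were lower (Mef2a, Mef2d and Tead1) and 1 was higher (Hand2), against 7.16% and 8.50% of all genes. Mef2a and Mef2d were below every control mouse in every mutant mouse and Hand2 was above, where 11.0% of all genes had no overlap in the lower direction and 11.7% in the higher. The median log2 fold change of all genes tested was -0.005, and in bulk tissue fewer cells of a type and less RNA per cell cannot be told apart.

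**Figure D1:**
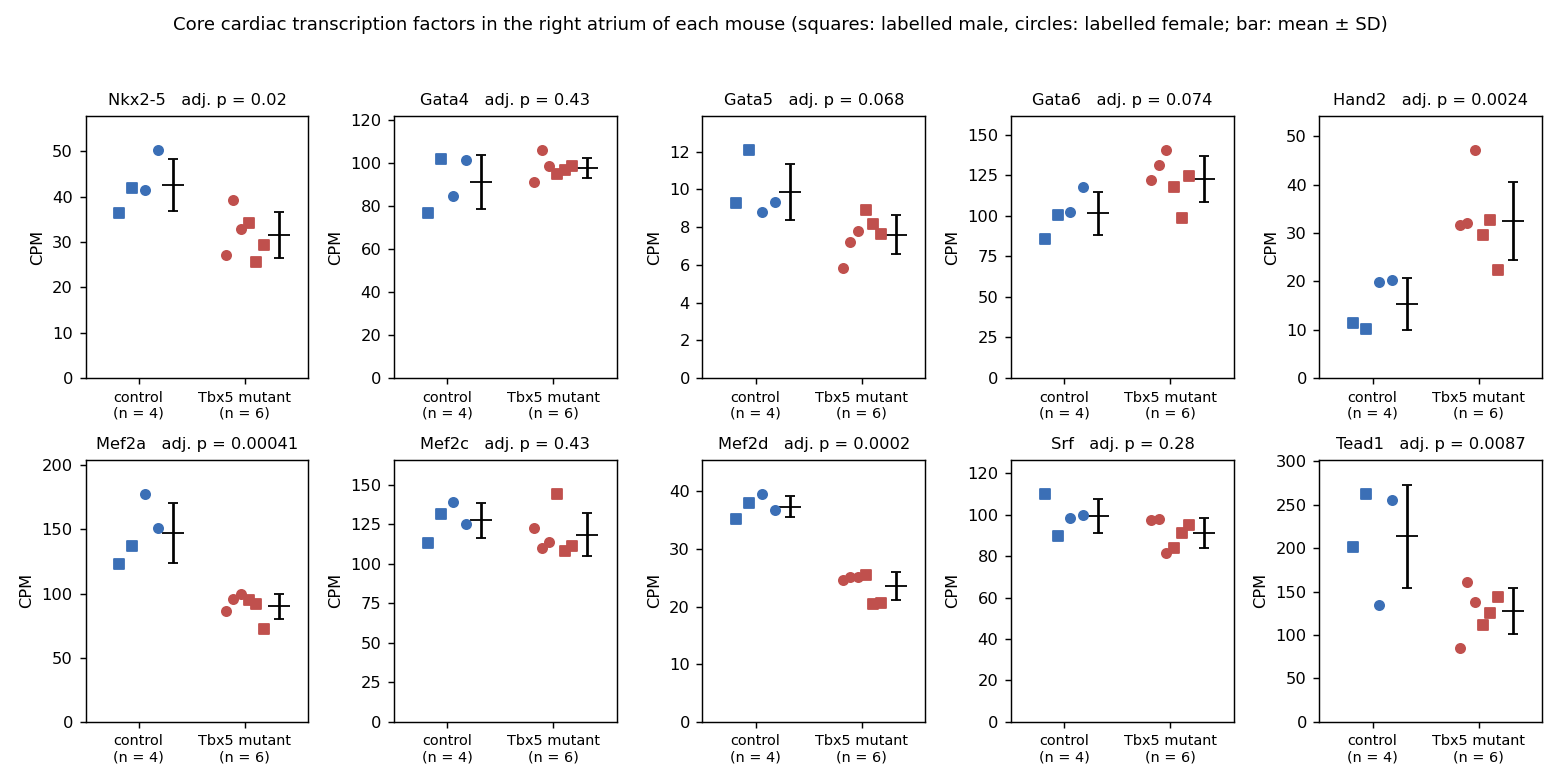
Level of each factor in every right atrium, in CPM on a linear axis from 0, with squares for mice labeled male, circles for mice labeled female, and the mean ± SD beside each group (4 control, 6 Tbx5 mutant). The groups do not overlap for Mef2a, Mef2d and Hand2, and they overlap for the other 7 factors.

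The MEF2 proteins are MADS-box factors of muscle that switch structural, metabolic and stress genes on or off according to the cofactor they bind. Mef2d (chromosome 3, 88142372 to 88172086, forward strand) gave the smallest adjusted p of the 10. It had 35.2, 37.9, 39.5 and 36.8 CPM in controls M1, M2, F1 and F2, and 20.4 to 25.5 CPM in mutants with a median of 24.9. Every mutant mouse was below every control mouse, and the lowest mutants were M2 and M3. The difference was -0.66 ± 0.09 on the log2 scale (SE, adjusted p = 0.000203). An antisense gene, 1700113A16Rik, covers 8.87% of the exonic bases of Mef2d and was itself lower, by -0.76 ± 0.18 (SE, adjusted p = 0.00527). Since the counting strand is not stated, reads from the 2 genes cannot be told apart over the stretch that they share, which holds 9.01% of the 50-base windows of Mef2d.

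Mef2a (chromosome 7, 67231163 to 67372858, reverse strand), a main MEF2 form of adult heart muscle, had 123 and 137 CPM in controls M1 and M2 and 178 and 151 CPM in F1 and F2. Mutants ranged from 72.4 to 99.8 CPM with a median of 93.3, again with no overlap, and M3 was the lowest. The difference was -0.70 ± 0.11 on the log2 scale (SE, adjusted p = 0.000415). Lysmd4, which overlaps Mef2a on the other strand and shares 4.61% of its windows, had a log2 fold change of -0.005 and an adjusted p of 0.982. Mef2c (chromosome 13, 83504034 to 83667080, forward strand), which drives heart tube growth in the embryo and is also made in endothelium, had 113, 132, 140 and 126 CPM in the controls in the same order. Its 6 mutants ranged from 108 to 144 CPM with a median of 113 and lay over the control range. The Mef2c difference was -0.11 on the log2 scale with an interval of 2 SE from -0.30 to 0.09 (adjusted p = 0.433), and its sign turned to 0.05 when the trend of each library on transcript length was removed.

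Within the MEF2 family the ratios of Mef2a and Mef2d to Mef2c differed between the groups. The log2 ratio of Mef2a to Mef2c within a mouse was 0.20 ± 0.13 in controls and -0.39 ± 0.21 in mutants (SD, n = 4 and 6). Mef2a exceeded Mef2c in CPM in every control mouse and Mef2c exceeded Mef2a in every mutant mouse, a difference of -0.59 (two-sided exact permutation p = 0.00476, adjusted over 6 ratios 0.0143). The ratio of Mef2c to Mef2d rose by 0.56, also with no overlap (exact permutation p = 0.00476, adjusted 0.0143), where 0.00476 is the smallest p that 4 mice against 6 can give. The ratio of Mef2a to Mef2d was 1.96 ± 0.17 in controls and 1.93 ± 0.13 in mutants on the log2 scale (exact permutation p = 0.69, adjusted 0.69). Per kilobase of the longest transcript, Mef2a made up 49.2% ± 2.4 of the 3 transcripts in controls and 41.2% ± 3.1 in mutants. The Mef2c share was 37.9% ± 1.7 and 47.7% ± 3.2, and the Mef2d share was 12.9% ± 0.88 and 11.1% ± 0.65. These shares depend on the length used. Per kilobase of all annotated exons, Mef2a, Mef2c and Mef2d had means of 10.0, 8.12 and 6.24 CPM in controls. The means in mutants were 6.14, 7.54 and 3.94 CPM. The sum of the 3 genes was 312 ± 34.9 CPM in controls and 232 ± 19.98 CPM in mutants (SD), with all mutants below all controls.

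**Figure D2:**
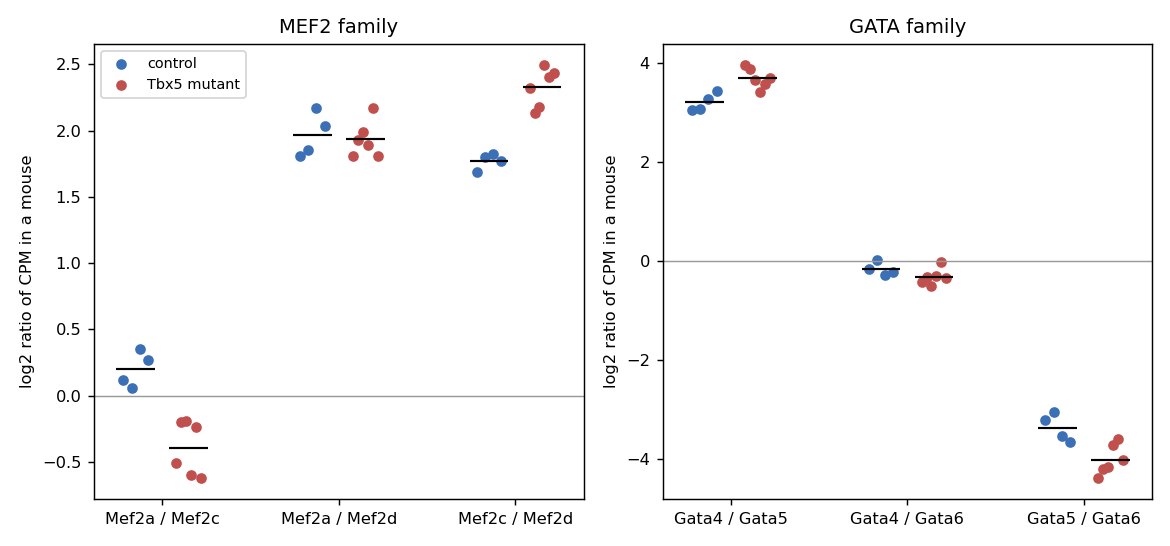
Log2 ratio of CPM between members of the MEF2 family (left) and the GATA family (right), 1 point per mouse, with black lines at the group means (4 control, 6 Tbx5 mutant). The Mef2a to Mef2c ratio is above 0 in the 4 controls and below 0 in the 6 mutants, and the Mef2a to Mef2d ratio overlaps throughout.

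The GATA factors are zinc finger proteins that open and activate heart enhancers, and Gata4 and Gata6 share much of this work in muscle. None of the 3 passed the test. Gata4 (chromosome 14, 63198922 to 63271692, reverse strand) had 76.7, 102, 84.7 and 101.4 CPM in controls M1, M2, F1 and F2 and 91.5 to 106 CPM in mutants with a median of 97.8. The groups overlapped, with 1 mutant (F2) above the highest control, and the log2 difference of 0.10 had an interval of 2 SE from -0.09 to 0.29 (adjusted p = 0.434). Gata6 (chromosome 18, 11052064 to 11085635, forward strand) had 85.6, 100, 102 and 118 CPM in the controls. Its mutants ranged from 98.7 to 141 CPM with a median of 123, and 5 of the 6 were above the highest control. The log2 difference was 0.27 ± 0.11 (SE, adjusted p = 0.0744). The adjusted p was 0.0342 without mutants M2 and M3, 0.0348 without control F2 and 0.0238 without mutant M2. It was 0.191 without control M1 and 0.16 with the replicate number as a block. Over 30 alternatives it ranged from 0.0238 to 0.245, and 5 of them were under 0.05.

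Gata5 (chromosome 2, 180325133 to 180334699, reverse strand), which is known best from endocardium and valve formation, was the least abundant factor, with 28 to 73 counts in a library. Controls M1, M2, F1 and F2 had 9.29, 12.1, 8.78 and 9.34 CPM, with M2 far above the other 3, and mutants had 5.84 to 8.91 CPM with a median of 7.71. In all, 5 of the 6 mutants were below the lowest control, and the log2 difference was -0.38 ± 0.15 (SE, adjusted p = 0.0676, and 0.0424 without mutant M1). Without control M2 the difference was -0.26 with an adjusted p of 0.227. Gata5 shares 5.05% of its windows with the antisense RNA Gata5os, which is not a row of the table. Reads of these overlapping genes may thus be joined in its count. At this depth counting error alone gives a coefficient of variation of 12.4% in controls and 15.1% in mutants, and the observed values were 15.1% and 13.6%. Relative to Gata4 and Gata6 in the same mouse, Gata5 was lower in mutants by the test of ratios. The Gata4 to Gata5 ratio differed by 0.48 on the log2 scale and the Gata5 to Gata6 ratio by -0.65 (each with exact permutation p = 0.0143, adjusted over 6 ratios 0.0214), with groups that overlap. The ratio of Gata4 to Gata6 differed by -0.16 (exact permutation p = 0.133, adjusted 0.16).

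Nkx2-5 (chromosome 17, 26838664 to 26845009, reverse strand) is the homeodomain factor that heart muscle cells need for conduction genes and for the atrial hormone gene Nppa. It had 36.4, 41.9, 41.4 and 50.2 CPM in controls M1, M2, F1 and F2 and 25.6 to 39.3 CPM in mutants with a median of 31.2. In all, 5 of the 6 mutants were below every control, and mutant F2 reached into the control range. The log2 difference was -0.43 ± 0.13 (SE, adjusted p = 0.0204). This call rests on few mice, since the adjusted p was 0.0815 without control F2 and 0.081 without mutants M2 and M3.

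Hand2 (chromosome 8, 57320983 to 57324633, forward strand), a basic helix-loop-helix factor that forms the embryonic right ventricle and is also made in heart fibroblasts and sympathetic neurons, was the factor that rose. Controls M1 and M2 had 11.3 and 10.1 CPM, controls F1 and F2 had 19.8 and 20.2 CPM, and mutants had 22.3 to 47.1 CPM with a median of 31.8. Every mutant was above every control, with F3 the highest and M3 the lowest, and the controls fell into 2 pairs that follow the labeled sex. The difference was 1.09 ± 0.22 on the log2 scale (SE, adjusted p = 0.00235), 1.41 among mice labeled male (adjusted p = 0.00651) and 0.89 among mice labeled female (adjusted p = 0.00952). By Xist and Ddx3y the controls and mutants within each labeled sex differ in sex, so group and sex cannot be told apart in these fits. Matched by Xist, the order of the 2 differences was the reverse. Among mice with Xist, controls M1 and M2 had 11.3 and 10.1 CPM and mutants F1 to F3 had 31.5 to 47.1 CPM. Among mice with Ddx3y, controls F1 and F2 had 19.8 and 20.2 CPM and mutants M1 to M3 had 22.3 to 32.8 CPM. The Hand2 interaction of group and sex was 0.53 on the log2 scale with the labels as given (adjusted p = 0.571). With the labels of the controls exchanged to follow Xist it was -1.27 (quasi-likelihood test, unadjusted p = 0.00114, adjusted p = 0.244). No factor passed the interaction at an adjusted p under 0.05 either way. Hand2 shares 15.8% of its windows with the antisense RNA Hand2os1, which is not a row of the table, so reads of the 2 may be joined in its count.

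Srf (chromosome 17, 46548329 to 46556175, reverse strand), the MADS-box factor that binds the CArG box with the cofactor Myocd or with ETS factors, had 110.0, 89.8, 98.6 and 99.9 CPM in controls M1, M2, F1 and F2. Its mutants ranged from 81.7 to 98.1 CPM with a median of 93.2 and overlapped the controls. The log2 difference was -0.13 with an interval of 2 SE from -0.30 to 0.05 (adjusted p = 0.282).

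Tead1 (chromosome 7, 112679318 to 112906807, forward strand), the main TEAD factor of heart muscle, had 202, 262, 135 and 256 CPM in controls M1, M2, F1 and F2, the widest control range among the abundant factors. Mutants had 85.3 to 161 CPM with a median of 132, and 3 of them were above control F1. The log2 difference was -0.75 ± 0.19 (SE, adjusted p = 0.00867). With 9964 bases its longest transcript is the longest of the 10, and long transcripts as a whole had lower counts in mutants: the 254 genes within 10% of that length had a median log2 fold change of -0.33. Across 12943 genes the Spearman correlation of a library's deviation from the gene means with transcript length was 0.124 to 0.329 in controls and -0.379 to 0.0429 in mutants. With that trend removed from each library the Tead1 difference was -0.45 and its adjusted p 0.128 (-0.55 and 0.00193 with the replicate number as a block beside it), while Mef2a, Mef2d, Nkx2-5 and Hand2 still passed, at -0.58, -0.54, -0.59 and 1.00. Same-numbered mice had correlations of -0.05 to 0.04 in their deviations over all genes tested. With 4 such pairs these values cannot show whether the replicate numbers pair the mice. Mutants M3 and F3 have no control of their number.

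**Figure D3:**
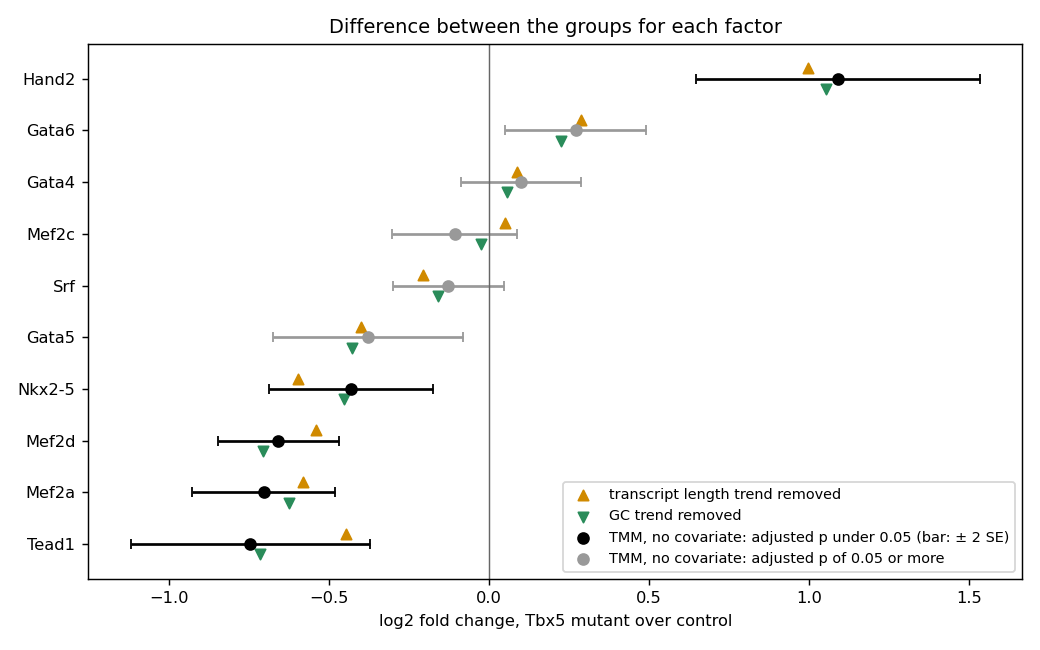
Log2 fold change of each factor between mice labeled Tbx5 mutant (n = 6) and control (n = 4), with bars of 2 SE, black where the adjusted p was under 0.05 and gray otherwise. Triangles give the value once the length trend (up) or the GC trend (down) of every library was removed, and Tead1 moved most with length, from -0.75 to -0.45.

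Levels were compared between factors per kilobase of the longest transcript. In controls Srf was highest, at 38.1 ± 3.2 CPM per kilobase (SD, n = 4), above the next factor in every mouse. Nkx2-5 (27.9), Gata4 (26.8), Gata6 (26.8) and Mef2a (26.6 CPM per kilobase) followed with overlapping ranges. Tead1 (21.4) ranged from 13.5 to 26.3 and overlapped each of these as well as Mef2c (20.3). Mef2d (6.91) and Hand2 (6.52) were lower with overlapping ranges, and Gata5 (3.01 CPM per kilobase) was the lowest without overlap. In mutants Srf (34.9), Gata6 (32.4) and Gata4 (28.8) led, each overlapping its neighbor. Nkx2-5 (20.6), Mef2c (18.9), Mef2a (16.3), Hand2 (13.8) and Tead1 (12.8 CPM per kilobase) followed, again with overlap between neighbors, and Mef2d (4.37) and Gata5 (2.32) were lowest. Hand2 thus moved from 9th to 7th place and Nkx2-5 from 2nd to 4th. Per kilobase of all annotated exons the order between these ends differed, with Hand2 in 8th place in controls and 5th in mutants, while Srf stayed first and Gata5 last in both groups.

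**Figure D4:**
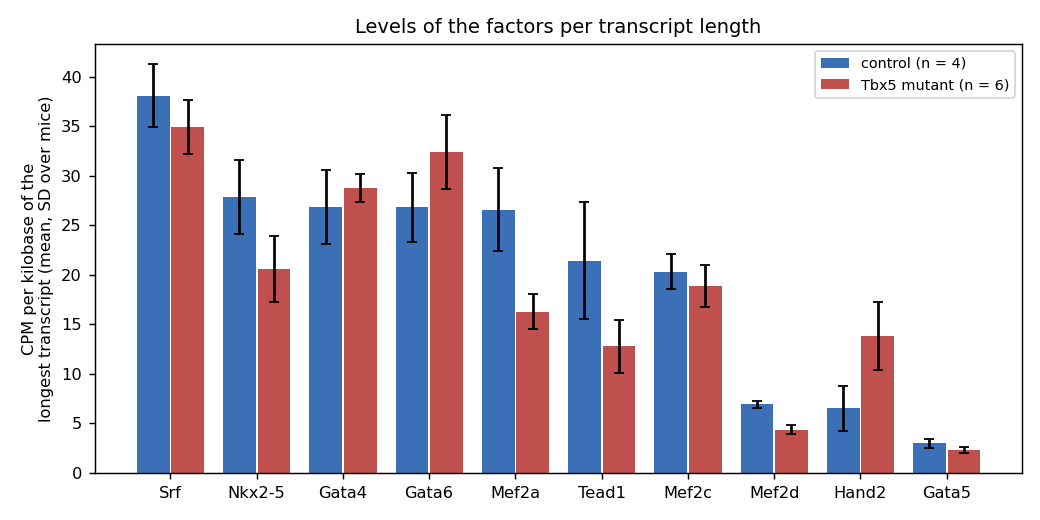
Mean level of each factor per kilobase of its longest transcript, with SD over 4 control and 6 Tbx5 mutant mice, ordered by the control level. Srf is the highest in both groups (38.1 and 34.9) and Gata5 the lowest (3.01 and 2.32 CPM per kilobase).

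Of 10 listed paralogs of the factors, Gata2, Tead2, Tead3 and Tead4 passed the expression filter, with 16.3, 10.6, 12.3 and 7.53 CPM in controls. Of these 4, none passed at adjusted p under 0.05 (1 was lower without control F1 or with the GC trend removed), where 15.0% of all genes tested were lower and 16.3% higher. Their median log2 fold change was -0.07. Nkx2-3 and Nkx2-6 had no count in any library, and Gata1, Gata3, Mef2b and Hand1 had at most 8 counts in a library. Of the 4 tested, Tead4 had the largest difference, from 7.53 to 5.25 CPM (log2 fold change -0.54, adjusted p = 0.0649).

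Among 30 partners of the factors, 29 were tested, 11 were lower, 4 were higher and 14 did not pass, with a median log2 fold change of -0.17, where 15.0% of all genes tested were lower and 16.3% higher. Hopx, a homeodomain protein without DNA binding that restrains Srf, fell from 217 ± 34.8 to 77.3 ± 19.97 CPM (SD, log2 fold change -1.49, adjusted p = 2.8e-05). Smarcd3, the BAF chromatin subunit that works with Tbx5, Nkx2-5 and GATA factors, fell from 136 ± 13.3 to 77.5 ± 5.3 CPM (-0.81, adjusted p = 1.74e-05). Myocd, the Srf coactivator of heart and smooth muscle, rose from 111 ± 11.3 to 197 ± 25.4 CPM (0.83, adjusted p = 0.000127), and Vgll3, a TEAD cofactor, rose from 8.28 to 14.2 CPM (0.78, adjusted p = 0.00516). Groups did not overlap for Hopx, Smarcd3, Myocd or Vgll3, nor for other partners such as Zfpm2, Hdac5, Crebbp and Smyd1. Of all genes tested, 11.0% had no overlap in the lower direction and 11.7% in the higher. The remaining higher genes were Tbx5 itself and the muscle methyltransferase Smyd1 (log2 fold change 0.35, adjusted p = 0.0139). Zfpm2, the cofactor FOG2 that binds GATA4, was also lower (-0.65, adjusted p = 0.000348), as were the acetyltransferases Ep300 (-0.56) and Crebbp (-0.41) and the histone deacetylases Hdac5 (-0.47) and Hdac4 (-0.43), which act on MEF2. Yap1 and Wwtr1, the Hippo cofactors of Tead1, had log2 fold changes of -0.09 and -0.09 (adjusted p = 0.449 and 0.446). The count of 11 lower partners was 6 after removal of the length trend, 7 without control M2, and 6 and 5 in mice labeled male and female alone. Over all genes the count of 1967 lower was 1674, 1537, 777 and 1214 in the same 4 settings.

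Known targets of the factors moved in both directions. Of 9 Srf targets, 6 were higher and none lower, with a median log2 fold change of 0.90, beside an Srf level that did not pass the test and 16.3% higher and 15.0% lower among all genes tested. Acta1, the skeletal alpha-actin gene of the fetal and stressed heart, had 0 to 0.812 CPM in controls and 4.46 to 8.71 CPM in mutants (adjusted p = 1.73e-05). The smooth muscle genes Acta2 and Tagln had log2 fold changes of 1.98 and 2.01 (adjusted p = 0.000339 and 0.000378), the cardiac actin gene Actc1 had 0.90 (adjusted p = 0.000533) and the immediate early gene Fos had 1.17 (adjusted p = 0.0088). Of 7 TEAD targets, 4 were higher and none lower, with a median of 0.59, beside a Tead1 level that was lower and the same 16.3% higher and 15.0% lower among all genes. Ankrd1, a stretch-responsive titin-binding protein, rose from 2579 ± 550 to 8793 ± 776 CPM (SD, log2 fold change 1.77, adjusted p = 5.53e-06), and the matricellular genes Cyr61 and Ctgf rose by 2.28 and 1.18 (adjusted p = 2.74e-05 and 0.000876). Amotl2, a Hippo pathway scaffold, rose by 0.59 (adjusted p = 0.00108).

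Of 6 MEF2 targets, 4 were higher, 1 lower and 1 did not pass, with a median log2 fold change of 0.50, where 16.3% of all genes tested were higher and 15.0% lower. The count lower was 2 without control M2, and also with the length trend removed, with or without the replicate block. The count of 4 was 3 in 8 of the 10 fits that leave out a single library and 2 with the fold rule. The intermediate filament gene Des (0.99, adjusted p = 6.95e-05), the intercalated disc gene Xirp1 (1.10, adjusted p = 0.0013), the creatine kinase gene Ckm (0.58, adjusted p = 0.00796) and Jun (0.42, adjusted p = 0.0487) were higher. Ppargc1a, the coactivator of mitochondrial genes, fell from 159 ± 19.6 to 92.0 ± 18.0 CPM (SD, -0.79, adjusted p = 0.00103). Of 7 targets of Nkx2-5 and GATA factors, 2 were lower, 2 higher and 3 did not pass, with a median of 0.03, against the same shares of all genes. The atrial connexin gene Gja5 fell from 220 ± 34.4 to 11.3 ± 3.4 CPM (-4.31, adjusted p = 4.01e-09), and the hormone gene Nppa fell with an adjusted p of 0.0426 (-0.65), and the count of 2 lower genes was 1 in 14 of 31 alternatives, among them those without any single control mouse and without mutant F1, F2, M1 or M2. Nppb, the ventricular stress hormone, and Tnnc1, cardiac troponin C, rose by 1.38 and 1.22 (adjusted p = 0.000396 and 3.61e-05). Many of these genes answer to several of the factors and to Tbx5, and the part that any one factor has in their levels was not tested.

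**Figure D5:**
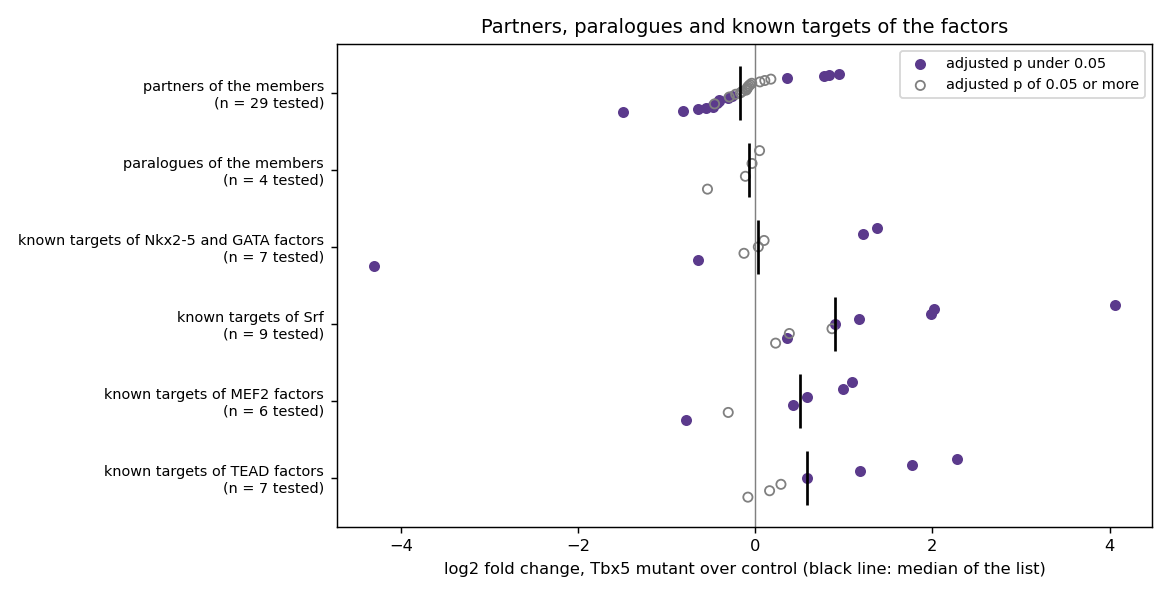
Log2 fold change of each tested partner, paralog and known target of the factors, 1 point per gene, filled where the adjusted p was under 0.05, with a black line at the median of each list. Srf and TEAD targets lie mostly above 0 (medians 0.90 and 0.59), and partners spread around a median of -0.17.

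Markers of other cells moved beside these levels. At the same adjusted p under 0.05, 16.3% of all genes tested were higher and 15.0% lower. Leukocyte markers were higher for 3 of 5 genes, with a summed level of 218 to 376 CPM in controls and 377 to 549 CPM in mutants. Smooth muscle and pericyte markers were higher for 3 of 5 (Acta2, Tagln and Pdgfrb), summing to 242 to 304 CPM in controls and 323 to 730 CPM in mutants, and Acta2 and Tagln are also among the Srf targets. Of 6 fibroblast markers, Col1a1 and Col1a2 were higher and Pdgfra was lower, with sums of 2650 to 3303 and 3241 to 4467 CPM. Of 6 endothelial markers 1 was higher, and none of 5 epicardial markers passed. All 5 atrial muscle markers were lower, and of 7 general heart muscle markers Ryr2, the calcium release channel, was lower (-1.65, adjusted p = 2.99e-05) and Tnnt2, Actn2 and Pln were higher. The ventricular gene Myl2 was higher, from 4.53 to 19.4 CPM, of 2 ventricular markers tested. Adipocyte markers summed to 0.47 to 4.14 CPM in controls and 0 to 20.8 CPM in mutants, the highest in mutant M2, and none was tested. No marker was at 0 in every library. The part that these cells have in the levels of the 10 factors was not tested.

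The genes with profiles most like the 3 factors of smallest adjusted p were found by the mean absolute difference of log2 CPM over the 10 libraries, each gene centered on its mean. Neo1, the netrin receptor neogenin, was closest to Mef2d, at 0.049, followed by Nrd1 at 0.059. For Mef2a these were E130308A19Rik at 0.08 and Trp53bp2 at 0.084. For Hand2 the closest was the kinase gene Wee1, at 0.144.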

How the data were processed

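The authors deposited 1 table for the 10 libraries. It holds raw counts per gene and, beside them, a signal, for which the authors divided counts by the DESeq2 size factor of a library. Its other columns are the authors' own comparison as deposited (log2 fold change, a Wald score, p-values and a linear ratio) and were not used. The submitters' processing notes name FastQC, TopHat2 2.0.11, featureCounts, DESeq2 and mm10, and the strand setting and annotation are not given in the sources used here. The labels describe both poly(A) and ribosomal depletion kits. Such steps set how transcript length and ribosomal RNA weigh in a library.

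Counts were tested with edgeR 4.0.16 in R 4.3.3 (expression filter, TMM, quasi-likelihood test, no covariates, prior count 0.125), with Benjamini-Hochberg adjustment over all genes tested. Standard errors of log2 fold changes were taken as their size over the square root of F. Ratios were compared on log2 CPM by exact permutation, two-sided, over the 210 assignments of 4 mice against 6. On simulated counts in which 200 of 12957 genes had a fold change of 2, the fit recovered 171 and made 11 other calls. Lengths, overlaps and coordinates came from GENCODE M21 (GRCm38), with lengths for 22844 of 23337 genes, and promoters from RefSeq. Libraries of 1 group differed by more than counting noise. Nothing but the labels says that libraries are separate mice, and counting limits cover counting error only. Named were all 10 factors, Tbx5, up to 5 genes past the threshold in each list by size of log2 fold change, and the 2 genes nearest in profile to 3 factors, of which 1 is not reported here. Further genes (Zfpm2, Ep300, Crebbp, Hdac5, Hdac4, Smyd1, Tead4, Yap1, Wwtr1, single marker genes and the overlapping genes) were named after their values were seen. Members and lists were chosen with earlier results of these data known. Alternatives were other scalings, filters and prior counts, DESeq2 1.42.0, limma 3.58.1, sex and replicate number as terms, each sex alone, removal of length or GC trends (lowess span 0.4), and libraries left out.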

Additional observations from a re-analysis of the deposited data

Results flagged for a closer look

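Gata5 in control M2, at 12.1 CPM, lay far from the other 3 controls (8.78 to 9.34 CPM), its gap to the nearest of them being larger than a Dixon limit at 95% for 4 values. It was 1 of 22 groups tested over the 10 factors and Tbx5, where chance gives about 1.1. The count behind it was 73 reads.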

How the results depend on the processing

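Mef2a, Mef2d and Hand2 kept their direction and passed the test in each of 30 alternatives, with log2 fold changes of -0.80 to -0.54, -0.71 to -0.53 and 0.89 to 1.41. Nkx2-5 lost its call in 5 of 30 (in mice labeled male alone, at -0.39 and adjusted p 0.15, in mice labeled female alone, at -0.46 and 0.0743, and at a threshold of 0.01), and Tead1 in 2 (0.165 in mice labeled female and 0.128 with the length trend removed). By Xist and Ddx3y, the fits of each labeled sex alone set controls against mutants of the other sex. The number of factors lower was 2 in mice labeled female alone and 5 with the GC trend removed or without mutant M1, where Gata5 was added (adjusted p 0.044 and 0.0424), and ranged from 2 to 5 over all alternatives. Over all genes tested the count lower was 1214 of 13292, 2056 of 13084 and 2217 of 13070 in the same order, against 1967 of 13084 in the main fit. The number higher was 2, Gata6 being added, with upper-quartile scaling, with labeled sex as a covariate and without mutants M2 and M3, an alternative chosen after seeing the data. Over all genes tested the count higher was 2364, 2157 and 1591 in the same order, against 2134 in the main fit. Leaving out 1 library at a time gave 1 to 2 factors higher, with 2 without control F2 or mutant M2. In those 2 fits 1905 and 1859 genes of the whole table were higher. The cause was not tested. Mef2c, which passed nowhere, changed sign to 0.052 with the length trend removed and 0.074 with the replicate block added to that. Same-numbered mice of the 2 groups had deviations with correlations of -0.05 to 0.04, which cannot show whether the numbers pair them. With the replicate block 4 factors were lower and 1 higher, and 1652 and 1755 genes over the whole table. The count of partners lower was 3 with the fold rule and 5 at 0.01, where 937 and 1039 genes of the whole table were lower. No factor passed the interaction of group and sex in any of its alternatives. At an unadjusted p under 0.05 there were 0 of 10 as labeled and 3 with exchanged control labels (Hand2, Gata6 and Mef2a). The share of all genes at that unadjusted threshold was not counted. At an adjusted p under 0.05 the interaction was passed by 38 genes of the whole table as labeled and by 1 with exchanged labels. Depth limits Gata5 most, with 28 to 73 counts.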
